A study of Rattus norvegicus with 43 samples.

Results

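The comparison described here is that of A7r5 cells kept for 14 days in medium with an excess of folic acid, at 100 ng/ml, with A7r5 cells kept for 14 days in medium with a sufficient amount, at 10 ng/ml. A7r5 is a line of vascular smooth muscle cells taken from the aorta of the rat, and both media were custom-made versions of DMEM. The arrays were chosen by the day and the concentration in their titles, which gave 5 excess and 5 sufficient arrays, 10 of the 43 in the series. The other arrays held the same cells at 7 and 21 days, and in deficient medium with 2.5 ng/ml. A result for a gene is its messenger RNA level on an Affymetrix rat array, as a log2 value, read from 1 probe set per gene for 9095 genes. Since no label states that the replicates came from separate cultures, part of the spread behind the p-values may be technical. That spread was pooled over the groups of all 43 arrays, not taken from these 10 alone. In the titles sufficient replicates 2, 3 and 5 share the serial number 22 and sufficient replicate 4 carries an R, with no explanation of either, so whether these are repeats of a sample is not known. Excess arrays carry the replicate numbers 1, 3, 4, 5 and 6 and sufficient arrays 1 to 5, and values are listed in that order.

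Folates carry single carbon units between serine, glycine, formate and methionine. Cells use these units to make thymidylate and purines for DNA, and methionine and S-adenosylmethionine for methylation. Folic acid itself is a synthetic, oxidised form that must be reduced before it enters the cycle. In the wall of an artery, smooth muscle cells can shift between a contractile state and a dividing, matrix-producing one.

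Of the 9095 genes, 3743 passed the test at day 14 (limma, Benjamini-Hochberg adjusted p under 0.05), or 41.2%, of which 2032 (22.3%) rose and 1711 (18.8%) fell in excess medium. A fit on only the 10 arrays of both groups called 2866 genes, 1585 higher and 1281 lower. The balance of the directions depended on the settings, with 1747 higher and 2065 lower after median centring and 1624 higher and 1792 lower with the beta-actin measure described next as a covariate. Most of these differences were small: 118 genes (1.3%) rose and 59 (0.649%) fell by at least 2-fold, 759 (8.35%) changed by at least 1.5-fold, and the median log2 fold change of all genes was 0.01. The values of the 2 groups did not overlap for 1033 genes higher (11.4%) and 865 lower (9.51%) in excess medium. Genes of cell division led the increases together with Txnip, and genes of the stress response, of striated muscle and of glycolysis were among the decreases.

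The arrays themselves were uneven in one measure of RNA quality. The difference between the 3′ and the 5′ probe sets of beta-actin was 2.80, 2.79, 2.37, 1.40 and 1.67 (log2) in the excess arrays and 1.77, 1.82, 1.71, 1.43 and 1.54 in the sufficient arrays, so that excess replicates 1, 3 and 4, called the 3 high-actin arrays here, lay above every sufficient array (means 2.21 ± 0.64 and 1.65 ± 0.16, SD, n = 5 each, exact permutation test, two-sided, p = 0.14). Without those 3 arrays the test called 870 genes higher (9.57%) and 1185 lower (13%), and 3713 of the 3743 genes kept their sign. With the difference as a covariate in the fit of all arrays 3416 genes were called, 2892 of the 3743 among them. Counts of list members below are to be set against 22.3% of all genes higher and 18.8% lower. Without the 3 high-actin arrays these shares are 9.57% and 13%. Excess replicates 1 and 3 also belong to the serial numbers 53 to 56, which hold only excess arrays. Serial numbers above 45 were carried by excess replicates 1, 3 and 6, but of the sufficient arrays only by replicate 4. No label calls these a batch, but such a series would be partly confounded with the medium. With this split as a covariate 3427 genes were called, 3233 of the 3743 among them. Correlations between arrays over all genes lay between 0.9914 and 0.9971 within the excess group, between 0.9893 and 0.9974 within the sufficient group, and between 0.9785 and 0.9903 across the groups. All 21 smooth muscle genes examined were kept as measured. Of the markers of other cell types, 7 of 8 endothelial, 8 of 9 epithelial, 7 of 8 macrophage, 6 of 6 adipocyte and 5 of 9 fibroblast genes never exceeded a log2 value of 4, which is near background, on any of the 10 arrays, among them Pecam1, Epcam, Ptprc, Adipoq and Pdgfra. The exceptions were Vwf (mean 3.76 in excess and 4.01 in sufficient medium), Krt8 (7.65 and 7.89), Cd14 (6.38 and 6.13) and the fibroblast markers S100a4 (13.54 and 13.48), Thy1 (10.50 and 10.78), Pdpn (8.42 and 8.82) and Dpep1 (5.98 and 5.57), each given for excess and then sufficient medium.

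The gene with the largest increase was Txnip, whose protein binds thioredoxin and restrains the entry of glucose. Txnip (chromosome 2) measured 8.50, 7.95, 8.53, 8.05 and 7.97 in the excess arrays, against 4.94, 5.34, 5.42, 5.44 and 5.01 in the sufficient arrays. The lowest excess array lay far above the highest sufficient one, and the means were 8.20 ± 0.29 in excess and 5.23 ± 0.24 in sufficient medium (log2, SD, n = 5 each). This is a log2 fold change of 2.97 ± 0.14 (SE), or 7.84-fold, with an adjusted p of 1.6e-18. A second alpha-arrestin, Arrdc4, whose mammalian protein is also known to lower glucose uptake, measured 5.45, 5.88, 5.69, 5.53 and 5.81 in excess medium, against 3.83, 3.71, 3.74, 4.30 and 3.92 in sufficient medium. The groups did not overlap, and since the sufficient level was near background the size of the 3.42-fold difference (adjusted p = 2.0e-13) is less certain than its direction. Of the 6 measured alpha-arrestins and glucose-sensing factors, 3 rose and 0 fell (limma, 1 lower at an unadjusted p under 0.05 and after median centring), the third being Arrdc2 with a log2 fold change of 0.43 ± 0.10 (0.34, adjusted p = 0.063, without the 3 high-actin arrays). Txnip was also the gene whose excess effect differed most between day 14 and day 7, as given further on.

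Genes of mitosis were the group with the most uniform increase. Of 44 measured members, 42 rose and 0 fell (limma, also 0 lower at an unadjusted p under 0.05 and after quantile normalization or median centring), against 22.3% of all genes that rose. For 40 of the 44, every excess array lay above every sufficient array. The median log2 fold change of the list was 1.26, against 0.01 for all genes. With the 3 high-actin arrays left out, 41 of the 44 rose and the median was 1.28. Since these are bulk samples, a change in the number of cells of a kind, such as cells in mitosis, and a change in the RNA per cell cannot be told apart.

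Kif20a, a kinesin of the central spindle, measured 9.05, 9.00, 9.34, 9.15 and 9.17 in the excess arrays, against 6.65, 6.63, 7.16, 7.19 and 6.67 in the sufficient arrays, a 4.86-fold difference (log2 2.28 ± 0.17, adjusted p = 1.2e-13). Cdc20, the activator of the anaphase-promoting complex, measured 8.28, 8.40, 8.53, 7.95 and 8.26 in excess medium, against 6.21, 6.01, 6.07, 6.10 and 6.19 in sufficient medium. For both genes every excess array lay above every sufficient array. Bub1b, a kinase of the spindle checkpoint, was 4.19-fold higher, Pttg1, which encodes securin, 4.01-fold, and Plk1, a kinase that drives entry into and passage through mitosis, 3.71-fold. Aurka, a kinase of the spindle poles, rose by 1.78 ± 0.12 on the log2 scale, Kif2c, a kinesin that depolymerises microtubules, by 1.74 ± 0.12, and Prc1, a bundler of spindle microtubules, by 1.62 ± 0.09. Mki67, the gene of the proliferation marker Ki-67, was already abundant in sufficient medium and measured 11.87, 12.05, 12.19, 12.08 and 12.14 in excess medium, against 10.95, 11.08, 10.90, 10.84 and 10.98 in sufficient medium (2.17-fold, adjusted p = 3.7e-16). Cdca3, which promotes entry into mitosis, and Pimreg, a mitotic regulator, were 3.95-fold and 3.82-fold higher. The 2 members that did not pass were Mybl2 and Sgo2, with log2 fold changes of 0.13 and 0.18, and they are named after their values were seen. Sgo2 lay near background in both media.

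**Figure D1:**
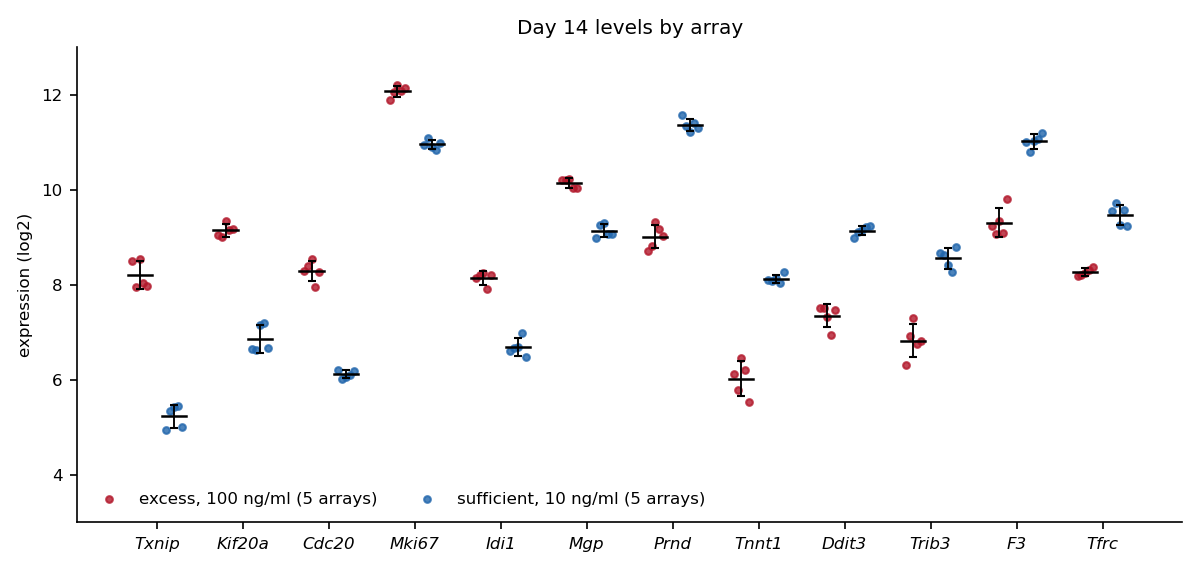
Expression (log2, y axis) of 12 genes on each of the 5 excess (red, left) and 5 sufficient (blue, right) arrays of day 14; horizontal lines are group means and bars are SDs. The excess arrays lie above the sufficient arrays for Txnip, Kif20a, Cdc20, Mki67, Idi1 and Mgp and below them for Prnd, Tnnt1, Ddit3, Trib3, F3 and Tfrc, with no overlap.

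Promoters of mitotic genes commonly hold 2 short elements, the cell cycle homology region (CHR, TTTGAA) and the CCAAT box. The 250 bases before the annotated start were taken from RefSeq (GRCr8) for the leading mitotic gene without a CHR, Kif20a (chr18:26504172-26504421, plus strand), and for 3 members with both elements, Cdc20 (chr5:137255800-137256049, minus strand), Prc1 (chr1:143659231-143659480, plus strand) and Mki67 (chr1:199952594-199952843, minus strand). They are shown 5′ to 3′ on the strand of the gene, with CHR and CCAAT letters on either strand in capitals.
Kif20a: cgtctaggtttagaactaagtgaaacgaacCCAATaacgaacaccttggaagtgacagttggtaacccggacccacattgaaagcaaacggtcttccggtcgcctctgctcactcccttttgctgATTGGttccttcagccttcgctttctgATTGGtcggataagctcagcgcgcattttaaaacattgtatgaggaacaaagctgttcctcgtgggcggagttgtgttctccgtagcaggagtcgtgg
Cdc20: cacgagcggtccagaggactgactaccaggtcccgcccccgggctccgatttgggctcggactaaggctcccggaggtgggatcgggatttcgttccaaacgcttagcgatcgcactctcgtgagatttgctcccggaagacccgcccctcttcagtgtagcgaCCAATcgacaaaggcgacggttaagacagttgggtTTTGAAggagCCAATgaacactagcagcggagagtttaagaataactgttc
Prc1: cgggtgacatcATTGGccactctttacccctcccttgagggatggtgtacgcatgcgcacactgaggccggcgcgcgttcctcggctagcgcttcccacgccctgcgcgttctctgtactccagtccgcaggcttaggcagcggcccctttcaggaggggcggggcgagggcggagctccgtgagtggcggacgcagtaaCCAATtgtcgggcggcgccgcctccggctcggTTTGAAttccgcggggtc
Mki67: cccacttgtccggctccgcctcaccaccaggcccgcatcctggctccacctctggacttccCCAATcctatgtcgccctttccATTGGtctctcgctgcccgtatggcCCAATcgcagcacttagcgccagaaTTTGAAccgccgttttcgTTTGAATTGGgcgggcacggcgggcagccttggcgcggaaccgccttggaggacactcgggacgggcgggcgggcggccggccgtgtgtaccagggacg
In Cdc20 the CHR began 51 bases before the start, between CCAAT boxes that began 86 and 41 bases before it. In Prc1 the CHR began 18 and the nearer CCAAT box 50 bases before the start. Mki67 held 2 CHR matches, of which the one nearer the start shares letters with a CCAAT box on the other strand. Of other genes searched and not shown, Plk1 held a CCAAT box but no CHR, and Bub1b and Aurka held neither. Among the 38 mitosis genes with a promoter in the table, 18 (47.4%) held a CHR and 30 (78.9%) a CCAAT box within this window, searched on both strands. Of all 27457 promoters of the same length, 16% held a CHR and 34.3% a CCAAT box, and of the 7715 measured genes with a promoter 9.98% and 36.7%. Among the 103 matched genes that rose by at least 2-fold, 35% held a CHR. These counts describe letters in a window and say nothing of binding.

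DNA replication genes rose with a smaller size. Of 38 measured members 31 rose and 0 fell (limma, also 0 lower at an unadjusted p under 0.05), with a median log2 fold change of 0.63, and without the 3 high-actin arrays the count was 26. Cdt1, which loads the MCM helicase onto origins, measured 8.29, 8.31, 8.19, 7.78 and 8.06 in the excess arrays, against 6.85, 7.09, 6.72, 7.08 and 6.95 in the sufficient arrays (2.28-fold, adjusted p = 1.8e-10). Pola1, the catalytic subunit of the polymerase that primes synthesis, was 2.2-fold higher, and Mcm7, a subunit of the helicase, 1.91-fold. Rrm1, the large subunit of the reductase that makes deoxyribonucleotides, rose by 0.64 ± 0.05 on the log2 scale, with excess arrays from 11.10 to 11.20 and sufficient arrays from 10.49 to 10.57. Of 20 DNA repair genes 9 rose and 1 fell, against 22.3% and 18.8% of all genes (6 and 1 without the 3 high-actin arrays). Blm, a helicase of recombination, rose by 1.28 ± 0.15, Ung, which removes uracil from DNA, by 0.89 ± 0.11, and Fancd2, of the crosslink repair pathway, by 0.85 ± 0.09.

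Among regulators of the cell cycle that act outside mitosis, more rose than fell. Of 16 inhibitors and G1 cyclins, 7 rose and 3 fell, against 22.3% and 18.8% of all genes. The share that fell was close to that of all genes. Without the 3 high-actin arrays 6 rose and 1 fell. The inhibitors Cdkn2c, which blocks Cdk4 and Cdk6, and Cdkn1b, which encodes p27, were 2.28-fold and 1.53-fold higher (adjusted p = 1.2e-10 and 1.8e-10), and Rbl1, a relative of the retinoblastoma protein, was 1.76-fold higher. Known targets of p53 fell: 8 of 11 were lower and 0 higher (limma, also 0 higher at an unadjusted p under 0.05), with a median of -0.42. Without the 3 high-actin arrays 3 of the 11 passed. Gadd45a, a growth arrest and repair gene, measured 8.83, 8.53, 8.76, 9.30 and 9.50 in the excess arrays, against 10.56, 10.58, 10.56, 10.94 and 10.66 in the sufficient arrays (3.2-fold lower, adjusted p = 4.2e-12), and its log2 fold change without those arrays was -1.26. Phlda3, a repressor of Akt, and Fas, a death receptor, fell by 0.60 and 0.59 on the log2 scale, and without the 3 high-actin arrays Fas had -0.40 and just missed the threshold (adjusted p = 0.0501).

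DNA and histone methylation enzymes had 11 of 18 members higher and 1 lower, with a median of 0.27, and 5 higher without the 3 high-actin arrays. Ezh2, the histone H3 lysine methyltransferase of the Polycomb complex, measured 9.92, 9.98, 10.21, 10.06 and 10.26 in excess medium, against 8.96, 9.26, 8.73, 9.00 and 9.04 in sufficient medium (2.12-fold, adjusted p = 2.0e-13). Its partner Eed rose by 0.44 ± 0.05, and Uhrf1, which brings the maintenance DNA methyltransferase to replicated DNA, by 0.93 ± 0.13. Uhrf1 stands on the replication list as well, and its excess replicate 1 lay below the other 4.

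The folate genes themselves differed little in size. Of 15 measured members of folate transport and the folate cycle, 1 rose and 8 fell, against 22.3% and 18.8% of all genes, and the median was -0.18. Without the 3 high-actin arrays 1 rose and 6 fell. Mthfd2, a mitochondrial enzyme that oxidises methylene-folate, measured 7.19, 7.74, 7.35, 7.01 and 7.48 in the excess arrays, against 7.89, 7.81, 7.72, 8.64 and 7.93 in the sufficient arrays (log2 fold change -0.64 ± 0.14, adjusted p = 2.9e-04). The groups of Mthfd2 touched, with excess replicate 3 above sufficient replicate 3, and sufficient replicate 4 was high. Shmt2, which takes the carbon unit from serine in mitochondria, measured 7.84, 7.81, 7.77, 7.74 and 7.82 in excess medium, against 8.49, 8.57, 8.60, 7.99 and 8.16 in sufficient medium (-0.57 ± 0.13, adjusted p = 7.2e-04), and here the difference was larger against sufficient replicates 1, 2 and 3 than against 4 and 5. Gcsh, a carrier protein of the glycine cleavage system, fell by 0.47. In the cytosol, Mthfd1, which makes formyl- and methylene-folate, was the single member that rose, by 0.37 ± 0.07. Slc19a1, the reduced folate carrier, fell by 0.47 (adjusted p = 7.0e-04), and Aldh1l1, which removes formyl groups, by 0.65, both at levels near background. The folate receptor gene Folr1 (-0.18 ± 0.11, adjusted p = 0.2) and Tyms, thymidylate synthase (0.05 ± 0.14, adjusted p = 0.8), did not pass.

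Neighbouring pathways of methyl groups and nucleotides moved in both directions. In the methionine cycle and polyamine synthesis 4 of 16 members rose and 6 fell (2 and 3 without the 3 high-actin arrays). Mat2a, which makes S-adenosylmethionine in most tissues, measured 11.68, 11.70, 11.27, 11.68 and 11.76 in the excess arrays, against 10.94, 10.88, 10.84, 10.91 and 11.07 in the sufficient arrays (1.62-fold, adjusted p = 1.6e-06). Mat1a, its counterpart best known from liver, was 2.01-fold lower, and Odc1, which starts polyamine synthesis, 1.58-fold lower. Of 21 genes of purine and pyrimidine synthesis 7 rose and 4 fell (4 and 4 without the 3 high-actin arrays), and Rrm1 was one of those that rose. Nme1, a nucleoside diphosphate kinase, and Hprt1, of purine salvage, fell by 0.56 and 0.40 on the log2 scale.

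**Figure D2:**
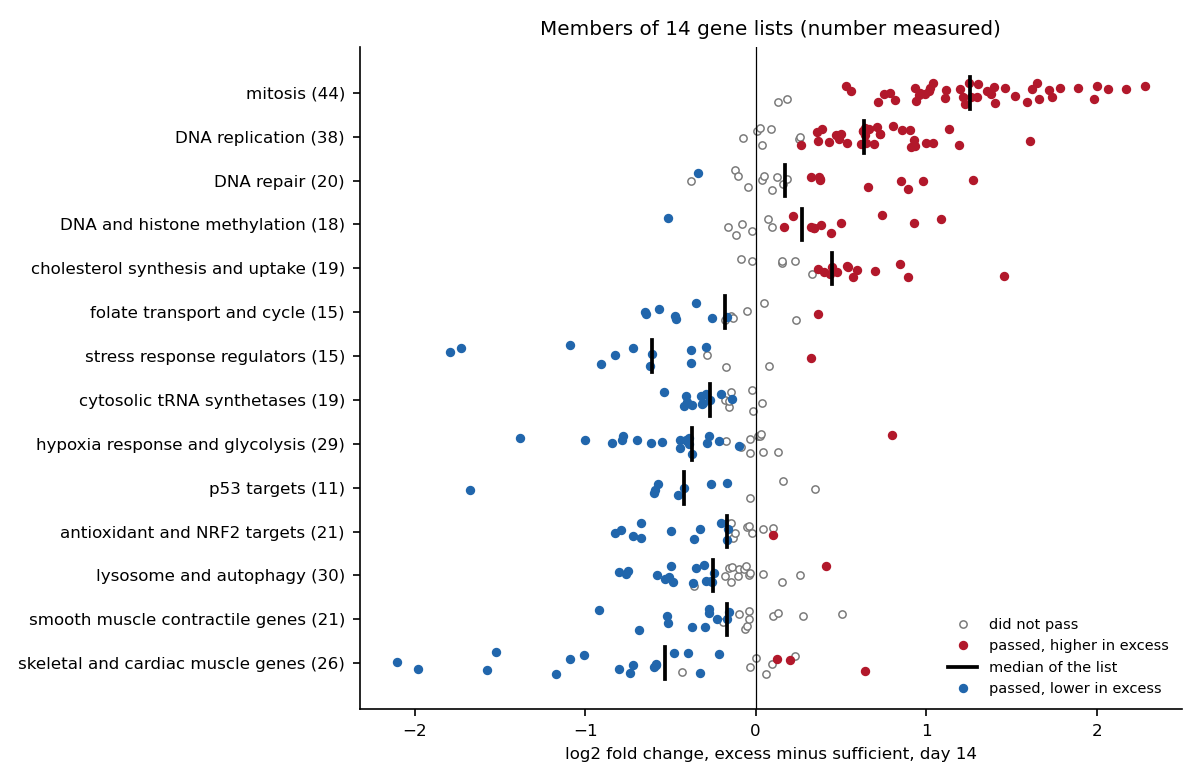
Log2 fold change at day 14, excess minus sufficient (x axis), of each measured member of 14 gene lists (1 line a list, with the number measured). Filled points passed the test (red higher, blue lower), open points did not, and black bars are list medians, which run from 1.26 for mitosis to -0.61 for the stress response regulators.

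The list with the lowest median was that of the integrated stress response, in which the factor ATF4 raises genes of amino acid supply and of cell death. Of 15 measured regulators 11 fell and 1 rose, against 18.8% and 22.3% of all genes, with a median of -0.61. Without the 3 high-actin arrays, 8 fell and the median was -0.42. Ddit3, the transcription factor CHOP, measured 7.51, 7.51, 7.32, 6.94 and 7.46 in the excess arrays, against 8.99, 9.12, 9.16, 9.20 and 9.23 in the sufficient arrays (3.46-fold lower, adjusted p = 3.4e-16). Trib3, a pseudokinase induced by CHOP, measured 6.31, 6.93, 7.29, 6.76 and 6.82 in excess medium, against 8.66, 8.63, 8.42, 8.26 and 8.79 in sufficient medium (3.31-fold lower, adjusted p = 2.8e-13). In both genes every excess array lay below every sufficient array, by a wide gap. Atf4 itself fell by 0.72, with 11.00, 11.03, 11.20, 11.30 and 11.38 in excess medium, against 11.98, 11.97, 11.85, 11.83 and 11.87 in sufficient medium.

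Among genes that ATF4 is known to control the decreases were smaller. Of 13 genes of serine and asparagine synthesis and amino acid transport 6 fell and 1 rose, and of 19 cytosolic tRNA synthetases 12 fell and 0 rose (limma, also 0 higher at an unadjusted p under 0.05). Without the 3 high-actin arrays 4 of the 13 and 9 of the 19 fell. Asns, asparagine synthetase, measured 9.40, 9.37, 9.49, 9.23 and 9.39 in the excess arrays, against 10.00, 9.95, 10.07, 10.17 and 9.96 in the sufficient arrays (1.57-fold lower, adjusted p = 3.5e-09). Phgdh, the first enzyme of serine synthesis, was 1.79-fold lower and Slc3a2, the heavy chain of several amino acid transporters, 1.55-fold lower. Among the synthetases, Wars1 (for tryptophan) fell by 0.54, Yars1 (tyrosine) by 0.41 and Eprs1 (glutamate and proline) by 0.32 on the log2 scale. Chaperones of the endoplasmic reticulum did not follow, with 5 of 21 higher and 3 lower (5 and 0 without the 3 high-actin arrays). Creld2, a secreted stress protein, was 1.85-fold higher, and Hspa5, the main chaperone BiP, was 1.12-fold higher with overlapping values.

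The C/EBP-ATF response element through which ATF4 and CHOP act was searched as TGATGNAA on both strands. The Trib3 promoter, chr3:161275534-161275783, minus strand (RefSeq, GRCr8), is shown as the member of the pair that holds a match, in capitals, beginning 21 bases before the start on the other strand.
Trib3: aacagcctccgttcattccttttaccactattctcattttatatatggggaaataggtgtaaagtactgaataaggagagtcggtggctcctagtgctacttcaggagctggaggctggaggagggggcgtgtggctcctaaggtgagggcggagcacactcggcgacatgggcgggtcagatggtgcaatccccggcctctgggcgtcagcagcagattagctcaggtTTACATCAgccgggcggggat
The window of Ddit3 held 0 matches, as did those of Asns and Atf4. Among the stress response regulators 5 of 14 promoters (35.7%) held the element, and among the tRNA synthetases 5 of 17 (29.4%), against 3.27% of all promoters and 1.67% of those of measured genes. Among the genes of serine and asparagine synthesis and amino acid transport 2 of 11 (18.2%) held it. Among the genes that fell by at least 2-fold 4 of 50 (8%) did. These counts too describe letters in a window and say nothing of binding.

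Genes of the hypoxia response and glycolysis were lower in 19 of 29 members and higher in 1, with a median of -0.37 (17 lower without the 3 high-actin arrays). Pfkp, a phosphofructokinase, measured 7.97, 8.01, 8.01, 7.71 and 7.92 in the excess arrays, against 8.92, 8.90, 8.95, 9.04 and 8.79 in the sufficient arrays (2-fold lower, adjusted p = 4.7e-09). Vegfa, the vascular growth factor, was 1.79-fold lower and P4ha2, a prolyl hydroxylase of collagen, 1.3-fold lower. Adm, the vasodilator peptide adrenomedullin, was the exception and rose by 0.80 ± 0.10 on the log2 scale. Antioxidant genes, many of them targets of NRF2, fell in 11 of 21 cases and rose in 1 (7 fell without the 3 high-actin arrays), and those that fell included the redox enzymes Srxn1 (-0.83 ± 0.10), Nqo1 (-0.72 ± 0.08) and Hmox1 (-0.67 ± 0.09). Of 30 lysosome and autophagy genes 15 fell and 1 rose (11 and 0 without the 3 high-actin arrays). Those that fell included the autophagy genes Gabarapl1 (-0.53 ± 0.06) and Sqstm1 (-0.49 ± 0.06, or -0.29 without the 3 high-actin arrays) and Npc2 (-0.37 ± 0.05), which moves cholesterol out of lysosomes. Transferrin receptor, Tfrc, by which cells take up iron, measured 8.19, 8.20, 8.25, 8.32 and 8.38 in excess medium, against 9.56, 9.72, 9.25, 9.57 and 9.22 in sufficient medium (2.29-fold lower, adjusted p = 2.0e-13), while 2 of the 8 iron genes rose and 3 fell in all (0 and 2 without the 3 high-actin arrays).

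Housekeeping groups had small median decreases. Of 42 respiratory chain and ATP synthase genes 12 fell and 2 rose, against 18.8% and 22.3% of all genes, with a median of -0.11. Without the 3 high-actin arrays 5 of the 42 fell, against 13% of all genes. Ndufb10, a subunit of complex I, was 1.31-fold lower. Among 17 cytosolic ribosomal proteins 9 fell and 1 rose, with a median of -0.12. That count depended on the scaling, since 2 fell after quantile normalization and 13 after median centring, and 1 fell without the 3 high-actin arrays.

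Cholesterol synthesis and uptake genes rose in 13 of 19 cases and fell in 0 (limma, also 0 lower at an unadjusted p under 0.05), with a median of 0.45 and 9 higher without the 3 high-actin arrays. Idi1, an isomerase of the isoprenoid pathway, measured 8.13, 8.21, 8.25, 7.90 and 8.20 in the excess arrays, against 6.61, 6.67, 6.69, 6.98 and 6.48 in the sufficient arrays (2.74-fold, adjusted p = 2.5e-15). Insig1, which holds the sterol sensor SCAP in the endoplasmic reticulum, was 1.86-fold higher, and Cyp51, a demethylase of lanosterol, 1.46-fold. The desaturases Scd2 and Fads1, which sit in fatty acid synthesis and are likewise SREBP targets, were 2.36-fold and 1.54-fold higher, whereas the fatty acid list as a whole was even, with 6 of 22 members higher and 6 lower (3 and 3 without the 3 high-actin arrays). Pnpla2, the triglyceride lipase, was 1.7-fold lower.

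Contractile genes of smooth muscle fell in 11 of 21 cases and rose in 0 (limma, 2 higher at an unadjusted p under 0.05 and 1 after quantile normalization), with a median of -0.17, and 7 fell without the 3 high-actin arrays. The summed linear level of the list was 106590 to 115338 in the excess arrays and 118670 to 140345 in the sufficient arrays. Tagln, which encodes SM22, measured 14.02, 13.92, 13.93, 13.95 and 13.95 in excess medium, against 14.36, 14.36, 14.42, 14.27 and 14.21 in sufficient medium (1.29-fold lower, adjusted p = 2.3e-08). Acta2, smooth muscle actin, was less clear, with 13.72, 13.38, 13.70, 13.83 and 13.65 in the excess arrays, against 14.57, 14.51, 14.37, 13.74 and 13.68 in the sufficient arrays (log2 fold change -0.52 ± 0.17, adjusted p = 0.014, or -0.43 with an adjusted p of 0.17 without the 3 high-actin arrays). Its sufficient replicates 4 and 5 lay within the range of the excess arrays and the other 3 lay above it. Des, desmin, and Csrp1, a LIM protein of smooth muscle, were 1.89-fold and 1.6-fold lower.

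Genes of striated muscle, several of which A7r5 cells also express, showed larger decreases. Of 26 measured members 17 fell and 3 rose, with a median of -0.53, and 16 fell without the 3 high-actin arrays. Their summed linear level was 26681 to 29020.3 in the excess arrays and 35812.7 to 38072.9 in the sufficient arrays, and 20 of the 45 list members on the array, the regulators Myog and Myod1 among them, never exceeded 4. Tnnt1, slow skeletal troponin T, measured 6.11, 5.78, 6.46, 6.21 and 5.53 in the excess arrays, against 8.10, 8.07, 8.15, 8.04 and 8.26 in the sufficient arrays (4.3-fold lower, adjusted p = 1.8e-14). Cox6a2, a cytochrome oxidase subunit of heart and skeletal muscle, measured 7.15, 7.32, 7.20, 7.31 and 7.03 in excess medium, against 9.11, 9.12, 9.18, 9.40 and 9.10 in sufficient medium (3.94-fold lower, adjusted p = 2.7e-18). In neither gene did the groups overlap. Acta1, skeletal actin, was 2.98-fold lower and Myh3, embryonic myosin heavy chain, 2.25-fold lower.

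Several genes outside these groups were among the 12 largest decreases. Prnd, which encodes the prion-like protein doppel, measured 8.71, 8.82, 9.31, 9.17 and 9.03 in the excess arrays, against 11.56, 11.33, 11.21, 11.41 and 11.29 in the sufficient arrays (5.1-fold lower, adjusted p = 8.9e-21), and was the gene that fell most. Lbp, the binding protein of bacterial lipopolysaccharide, was 4.13-fold lower, with 4.75, 5.07, 5.21, 5.26 and 5.46 in excess medium, against 7.52, 7.56, 7.69, 6.56 and 6.66 in sufficient medium, where replicates 4 and 5 were the lower ones. F3, tissue factor, which starts coagulation, measured 9.23, 9.06, 9.34, 9.08 and 9.81 in excess medium, against 11.01, 10.78, 11.02, 11.06 and 11.19 in sufficient medium (3.27-fold lower, adjusted p = 3.7e-16). Ifi27l2b, of an interferon-inducible family, was 3.67-fold lower, Tnc, the matrix glycoprotein tenascin C, 3.01-fold, and C10h16orf89 3.43-fold. LOC102547703, among the largest increases, was 4.79-fold higher, from a sufficient level near background.

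Matrix and signalling genes were split. Of 25 collagens and collagen enzymes 4 rose and 3 fell, against 22.3% and 18.8% of all genes (3 and 2 without the 3 high-actin arrays). Col6a3, a chain of the microfibril-forming collagen VI, measured 10.37, 10.42, 10.81, 11.04 and 10.64 in the excess arrays, against 9.04, 9.59, 8.90, 8.50 and 8.67 in the sufficient arrays (3.29-fold, adjusted p = 1.6e-09). Among 25 other matrix genes 6 rose, such as Emilin1 of elastic fibres (0.99 ± 0.13), and 7 fell, such as Prelp, a proteoglycan (-1.06 ± 0.16), with 5 and 3 without the 3 high-actin arrays. Mgp, matrix Gla protein, which inhibits calcification, was 2.01-fold higher, with 10.21, 10.20, 10.22, 10.02 and 10.02 in excess medium, against 8.98, 9.25, 9.30, 9.07 and 9.06 in sufficient medium (adjusted p = 4.5e-08). Of 7 calcification genes 1 rose, Mgp, and 3 fell (1 without the 3 high-actin arrays). Spp1, osteopontin, fell by 0.49 (-0.24, adjusted p = 0.14, without the 3 high-actin arrays), and Slc20a2, a phosphate importer, by 0.42 on the log2 scale. In the TGF-beta and BMP pathway 10 of 21 members fell and 4 rose (5 and 2 without the 3 high-actin arrays). Tgfb3, a ligand, fell by 0.65, Id1, a direct BMP target, by 0.78, and Bambi, a decoy receptor, by 0.75.

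Of 24 immediate early genes 9 rose and 3 fell (5 and 2 without the 3 high-actin arrays). Egr1, a transcription factor induced by growth factors, was 2.2-fold higher (adjusted p = 3.4e-10), Errfi1, an inhibitor of the EGF receptor, 1.69-fold higher, and Dusp1, a MAP kinase phosphatase, 1.49-fold lower. Among 11 genes of vascular tone 2 rose and 5 fell (2 and 3 without the 3 high-actin arrays). Gucy1b1, the beta subunit of the nitric oxide receptor guanylate cyclase, measured 6.61, 6.43, 6.45, 5.72 and 6.21 in the excess arrays, against 4.67, 4.89, 4.44, 4.87 and 5.13 in the sufficient arrays (2.8-fold, adjusted p = 1.2e-08). Trpc6, a cation channel, and Kcnmb1, the smooth muscle subunit of a potassium channel, were 1.94-fold and 1.59-fold lower, and without the 3 high-actin arrays Kcnmb1 had a log2 fold change of -0.43, against -0.67 with them, and did not pass (adjusted p = 0.11). Edn1, endothelin, fell by 1.09 to a level near background.

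Genes of other functions mostly moved by less than 2-fold and in both directions. Some of their counts lay near the shares over all genes, 22.3% higher and 18.8% lower. Casp4, an inflammatory caspase, fell by 1.19 on the log2 scale, with 6.93, 6.92, 6.75, 7.05 and 7.11 in the excess arrays, against 8.03, 8.13, 7.91, 8.54 and 8.10 in the sufficient arrays. The complement proteases C1s and C1r rose by 0.65 ± 0.12 and 0.54 ± 0.11, but had 0.36 and 0.31 and did not pass without the 3 high-actin arrays (adjusted p = 0.081 and 0.11), and 3 of 14 inflammation genes rose and 3 fell in all (0 and 1 without the 3 high-actin arrays). Of 10 interferon response genes 2 rose, with Ifi44 at 0.70 ± 0.10, and 5 fell (1 and 3 without the 3 high-actin arrays), with Gbp2, a GTPase of cell defence, at -0.39 ± 0.06. Plat, tissue plasminogen activator, rose by 0.70 ± 0.07, the single member higher among 12 matrix proteases and their inhibitors, while 5 were lower (1 without the 3 high-actin arrays). Among 20 adhesion receptors 4 rose and 7 fell (1 and 1 without the 3 high-actin arrays), with Cd44, the hyaluronan receptor, at -0.69 ± 0.11 (-0.35 without them) and Cdh11, a cadherin of mesenchymal cells, at 0.23 ± 0.05. In the Wnt pathway 2 of 9 rose and 2 fell, close to the shares over all genes (2 and 1 without the 3 high-actin arrays). The transcription factors Tcf7 and Tcf7l2 rose by 1.24 ± 0.19 and 0.50 ± 0.09, and their relative Lef1 had -0.32 ± 0.10. Tcf7 in sufficient medium (mean 4.10) and Lef1 in both media (4.30 in excess and 4.62 in sufficient medium) lay near background. Of 10 genes of insulin-like growth factors 3 fell and 0 rose (limma, also 0 higher at an unadjusted p under 0.05), namely Igf2, Igfbp2 and Igfbp5, at -0.64 ± 0.21, -0.44 ± 0.09 and -0.42 ± 0.09. Igf2 (means 3.97 in excess and 4.61 in sufficient medium) and Igfbp2 (4.16 and 4.60) lay near background, and the groups of Igf2 overlapped. Ncoa4, which delivers ferritin for breakdown, rose by 0.45 ± 0.09 with overlapping groups (0.24, adjusted p = 0.075, without the 3 high-actin arrays), Atp2b1, a calcium pump of the cell membrane, by 0.40 ± 0.06, and S1pr3, a sphingosine phosphate receptor, by 0.48 ± 0.08.

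The next comparison asked whether the effect of excess medium at day 14 differed from that at day 7, which was measured on other arrays. It did for 1678 genes (18.4%), 1253 with a higher effect at day 14 (13.8%) and 425 with a lower one (4.67%). At day 7 itself the test called 216 genes (2.37%), 25 higher (0.275%) and 191 lower (2.1%). Of the 3743 genes called at day 14, 134 were also called at day 7, which is 3.58% of the day 14 calls and 62% of the day 7 calls, and 118 of the 134 had the same direction. The direction of the 1678 differences depended on the scaling, with 690 higher and 922 lower after median centring and 1026 higher and 494 lower after quantile normalization.

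Mitosis genes were among those that differed. The effect was higher at day 14 for 39 of 44 members, and the median log2 fold change of the list was 0.18 at day 7. Median levels of the list were 9.23 at day 7 and 8.56 at day 14 in excess medium, against 9.08 at day 7 and 7.29 at day 14 in sufficient medium. For Kif20a the log2 fold change was 0.15 at day 7 and 2.28 at day 14, a difference of 2.13 ± 0.25 (SE, adjusted p = 5.8e-08). Cdca3 differed by 1.93 ± 0.19. Txnip had the largest difference, 2.42 ± 0.21, with a log2 fold change of 0.55 at day 7 (adjusted p = 0.046).

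Of the 3743 genes called at day 14, 2424 (64.8%) had a fold change of the same sign at day 7, whether or not it passed there. Among the named genes, some fold changes had opposite signs at the 2 days. Hey2, a repressor downstream of Notch in vascular cells, had a log2 fold change of -0.51 at day 7, which did not pass (adjusted p = 0.054), and 1.40 ± 0.14 at day 14, where excess arrays measured 7.17, 7.12, 6.86, 6.44 and 6.91 and sufficient arrays 5.39, 5.57, 5.50, 5.49 and 5.54. Mgp had -0.53 at day 7 (adjusted p = 0.026) and 1.00 at day 14. Lower effects at day 14 than at day 7 were led by Prnd (-2.01 ± 0.14) and Tnnt1 (-1.68 ± 0.21). Phlda1, an early growth response gene, Pdgfc, a growth factor, and Entr1, of endosomal sorting, followed with differences of -1.67, -1.62 and -1.55. Their day 14 log2 fold changes were -1.56, -1.03 and -0.93. Without the 3 high-actin arrays these shrank to -0.80, -0.27 and 0.06, so the sizes of the differences depend on those arrays.

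**Figure D3:**
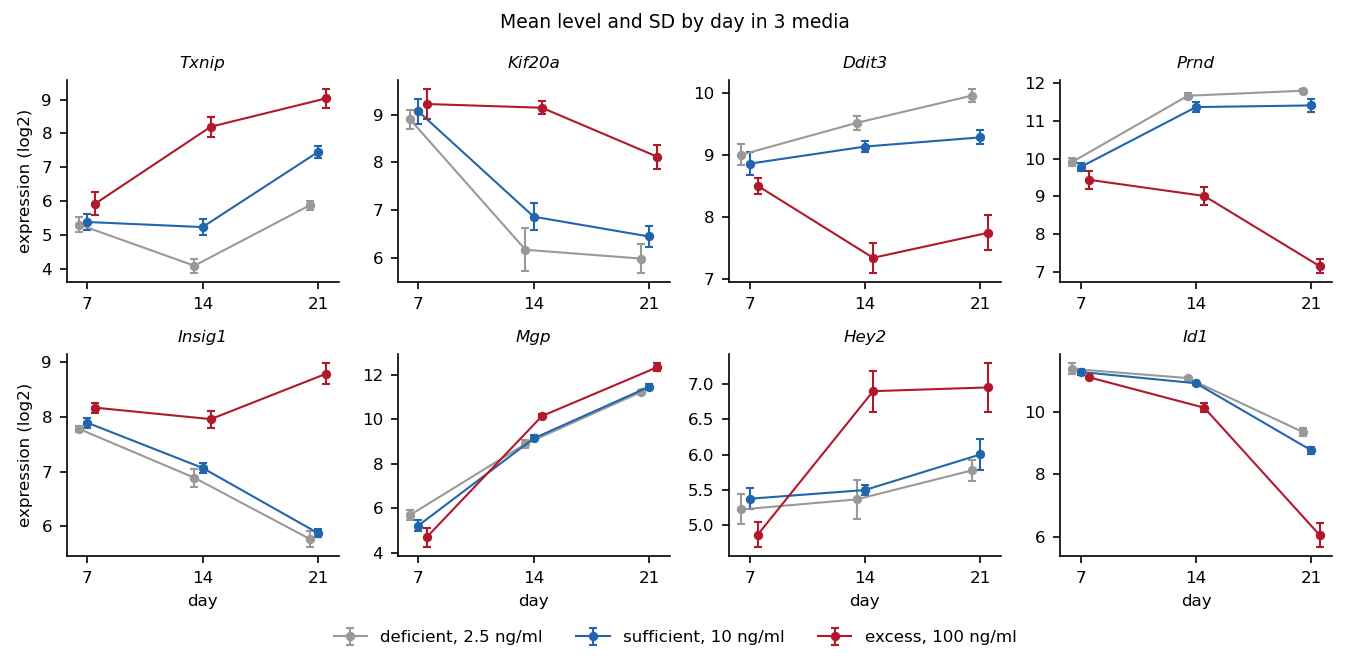
Mean expression (log2, y axis) of 8 genes at days 7, 14 and 21 (x axis, points offset slightly) in deficient (grey), sufficient (blue) and excess (red) medium; bars are SDs over 4 or 5 arrays. For Txnip the difference between excess and sufficient medium is 0.55, 2.97 and 1.59 at the 3 days, and for Insig1 0.27, 0.89 and 2.91, so that the gap is widest at day 14 for Txnip and at day 21 for Insig1, Prnd and Id1.

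The last comparison set day 14 against day 21, also measured on other arrays, and shares the day 14 arrays with the one before. The effect of excess medium differed between these days for 783 genes (8.61%), 425 higher at day 14 (4.67%) and 358 lower (3.94%). At day 21 the test called 3974 genes (43.7%). Of the day 14 calls 2391 were shared, 63.9% of them and 60.2% of the day 21 calls, and 2331 of the shared genes had the same direction.

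Cholesterol genes had a smaller effect at day 14 than at day 21 in 10 of 19 cases, with medians of 0.45 and 0.94. Insig1 led them: its log2 fold change was 0.89 at day 14 and 2.91 at day 21 (difference -2.02 ± 0.12, adjusted p = 7.3e-16). Collagen gene Col25a1 and the proteoglycan gene Lum, both near background at day 14, had 0.80 and 1.23 at day 14 and 2.72 and 2.88 at day 21, and without the 3 high-actin arrays Col25a1 had 0.48 at day 14 (adjusted p = 0.088). Slc29a1, a nucleoside transporter, and Hsd11b1, which activates glucocorticoids, did not pass at day 14 (0.04 and -0.12) and had 1.88 and 1.40 at day 21.

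The decrease of several genes was likewise smaller at day 14. Prnd had -2.35 at day 14 and -4.25 at day 21, a difference of 1.90 ± 0.14. Id2, an inhibitor of basic helix-loop-helix factors, did not pass at day 14 (-0.16 ± 0.15, adjusted p = 0.42), and had -2.34 at day 21. Its relative Id1 had -0.78 and -2.71. Cyp2c11, a cytochrome P450 gene, and Entrep1 had -0.34 and -0.06 at day 14, where neither passed, and -2.22 and -2.12 at day 21. For mitosis genes the effect was higher at day 14 in 6 of 44 cases, with medians of 1.26 and 1.10. In striated muscle genes 11 of 26 differed between the days, and the median was -0.53 at day 14 and -0.66 at day 21.

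**Figure D4:**
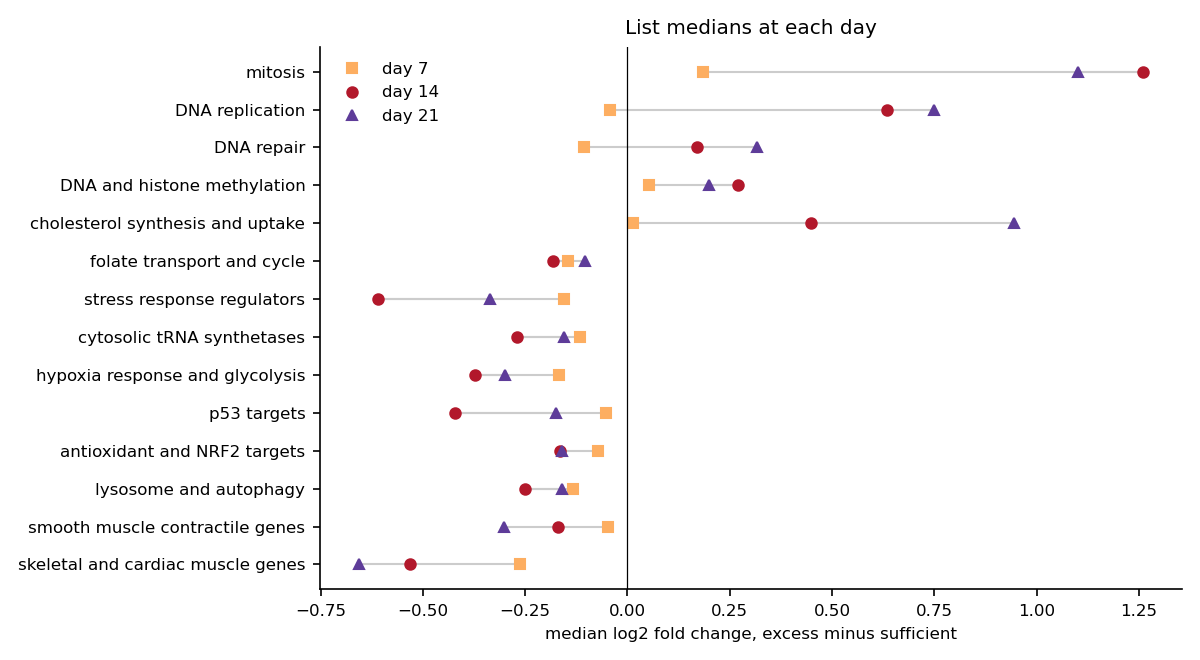
Median log2 fold change, excess minus sufficient (x axis), of 14 gene lists (1 line a list) at day 7 (square), day 14 (circle) and day 21 (triangle). Mitosis has 0.18, 1.26 and 1.10, cholesterol synthesis 0.01, 0.45 and 0.94, and the stress response regulators -0.15, -0.61 and -0.34.

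The deficient medium of day 14 adds a lower concentration, compared with the same sufficient arrays, so the values are set side by side with no test between them. Txnip averaged 4.08, 5.23 and 8.20 (log2) at 2.5, 10 and 100 ng/ml. Trib3 averaged 9.27, 8.55 and 6.82, Ddit3 9.52, 9.14 and 7.35, and Kif20a 6.17, 6.86 and 9.14. The difference between deficient and sufficient medium passed for Txnip and Trib3 (adjusted p = 1.4e-05 and 0.012) and not for Ddit3 and Kif20a (0.15 and 0.077). Other genes that rose in excess medium were not lower in deficient medium, such as Cdt1 with means of 7.18, 6.94 and 8.13 and Kif2c with 5.32, 5.22 and 6.96. Over the mitosis list the median log2 fold change against sufficient medium was -0.11 in deficient and 1.26 in excess medium.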

How the data were processed

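The series measured RNA of A7r5 cells on 43 Affymetrix arrays, in 9 groups set by medium and day. The deposited table holds log2 values of 31099 probe sets, made by the authors with GCRMA, and limma is also named, both without a version, per the submitters' processing notes. GCRMA corrects background by probe sequence, normalizes by quantiles and summarizes probe sets; array medians lay between 3.66 and 3.72. Fold changes of genes near background are compressed or unsteady, and no scanner files were used here.

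Probe sets were named from the platform annotation, with 20826 having 1 symbol, 436 several and 9831 no entry, and symbols were updated through RefSeq (GRCr8). Probe sets above a log2 of 4 in at least 4 arrays were kept, with 1 probe set per gene by the highest mean over all arrays, which gave 9095 genes. Near background is used of levels about or below that limit. A linear model with a mean for each of the 9 groups was fitted to all arrays (limma 3.58.1, R 4.3.3; 34 residual degrees of freedom, two-sided tests, Benjamini-Hochberg adjustment over all genes, threshold 0.05), with contrasts for excess against sufficient medium at day 14 and for its difference from days 7 and 21. The procedure was tested on simulated data. The number of arrays limits the precision. Errors are SDs for levels and SEs for fold changes.

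Named genes were 12 in each direction with the largest called fold changes, no overlap and a mean of at least 5 in a group, up to 3 members of each of 43 gene lists by t, a panel of folate and stress genes, and the 5 highest and 5 lowest differences between days. Members and lists were chosen with earlier results of these data known. Alternatives changed the probe set, filter, scaling, arrays, covariates and array weights, and left out single arrays. Probe sets of a gene disagreed in sign for Ncam1, Tcf7l2, Slc40a1 and Gnas. For other genes they differed in size, so the sizes given hold for the probe set used. Other probe sets gave log2 fold changes of -2.13 and -0.50 for Eprs1 (used: -0.32) and -1.69 for Dusp1 (used: -0.58). They gave -1.45 for Slc20a2 (used: -0.42) and 0.12 for Mat2a (used: 0.69). Figures were drawn with Python 3.11.15 and matplotlib 3.10.9.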

Additional observations from a re-analysis of the deposited data

Results flagged for a closer look

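Among 296 tests of the named genes for a sample far from the other 4 of its group (the gap to the nearest array over the range of the group, above 0.71), 12 stood out, 5 in excess and 7 in sufficient arrays; chance gives about 1 in 20 such groups. In excess medium these were Pttg1 in replicate 4 (8.67, others 8.24 to 8.35), Mat2a in replicate 4 (11.27, others 11.68 to 11.76), Pfkp in replicate 5 (7.71, others 7.92 to 8.01), Usp18 in replicate 6 (3.88, others 3.34 to 3.48) and Uhrf1 in replicate 1 (7.96, others 8.39 to 8.56). Sufficient replicate 4 held 5 of the 7 others: Cox6a2 (9.40, others 9.10 to 9.18), Gadd45a (10.94, others 10.56 to 10.66), Hprt1 (10.88, others 10.65 to 10.69), Igfbp2 (4.84, others 4.49 to 4.57) and Mthfd2 (8.64, others 7.72 to 7.93). The remaining ones were Adm in sufficient replicate 3 (5.43, others 5.68 to 5.74) and Dpep1 in sufficient replicate 5 (5.46, others 5.58 to 5.60).

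The effect of excess medium differed between day 14 and day 7 for 1678 genes by the test of the difference. The named ones, as log2 differences of the effect, were Txnip (2.42), Kif20a (2.13), LOC102547703 (1.96), Cdca3 (1.93) and Hey2 (1.91) on the higher side, and Prnd (-2.01), Tnnt1 (-1.68), Phlda1 (-1.67), Pdgfc (-1.62) and Entr1 (-1.55) on the lower side. Between day 14 and day 21 it differed for 783 genes. The named ones were Id2 (2.18), Entrep1 (2.06), Id1 (1.92), Prnd (1.90) and Cyp2c11 (1.88) on the higher side, and Insig1 (-2.02), Col25a1 (-1.91), Slc29a1 (-1.84), Lum (-1.65) and Hsd11b1 (-1.52) on the lower side.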

How the results depend on the processing

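For excess against sufficient medium at day 14, the count of 3743 genes became 2294 with only serials up to 45 (1236 higher, 1058 lower), 2055 without excess replicates 1, 3 and 4 (870 higher, 1185 lower) and 522 with only serials above 45 (304 higher, 218 lower); the second and the last were chosen after seeing the data, all 3 use fewer arrays, and in the last the lone sufficient array is assumed to vary like the other groups. The share of higher genes among the calls was 54.3%, 42.3% without those 3 replicates, 45.8% after median centring and 47.5% with the beta-actin covariate. Leaving out single arrays gave 3144 to 3849 calls. With the replicate block the count was 3398 (1897 higher, 1501 lower), although the numbers did not pair the samples (deviations from the group means of the 4 same-numbered pairs correlated between -0.28 and -0.07). Of the 3743 genes, 3740, 3713 and 3660 kept their sign under the 3 reduced sets. For the difference between days 14 and 7, the 1678 calls became 977 without serials 53 to 56, 1070 with the beta-actin difference as a covariate, 958 with the replicate block, 2649 with array weights and 570 without excess replicates 1, 3 and 4. Leaving out single arrays gave 1222 to 2020. For the difference between days 14 and 21, the 783 calls became 392 with only serials up to 45, 470 without serials 53 to 56, 514 with the replicate block and 1532 with array weights, with 618 to 964 when single arrays were left out; without excess replicates 1, 3 and 4 it was 572 (225 higher, 347 lower), so that 39.3% of the calls were higher, against 54.3%. The cause of these shifts was not tested where no arrays were removed. Among 148 named genes, 3365 values under the alternatives kept their direction and side of the threshold, 148 lost the call, 7 gained it and 16 changed sign. The changes of sign were in 6 genes, of which Entr1 had passed and the others had not, namely Folr1 (0.0347 without excess replicates 1, 3 and 4), Tyms (-0.0623 with the array series as a covariate, -0.000125 with the replicate block, -0.0251 to 0.139 when single arrays were left out and -0.31 with only serials above 45), Entr1 (0.0561 without excess replicates 1, 3 and 4), Slc29a1 (-0.0387 without those replicates and -0.0247 with only serials above 45), Entrep1 (0.0334 with the array series as a covariate, 0.0392 with serials up to 45, 0.00579 with the replicate block, -0.142 to 0.00351 when single arrays were left out and 0.0204 with serials above 45) and Id2 (0.10 with serials up to 45 and 0.0268 without serials 53 to 56). Of the list medians, 932 moved by less than the spread between arrays and 75 by more.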
